A study of Mus musculus with 4 samples.

Results

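Vwf-positive endothelial cells (ECs) were 96 of 7389 ECs and of 30362 cells kept in all. They were chosen by their own counts: a cell barcode had 500 to 6000 detected genes and at most 10% of its unique molecular identifiers (UMIs, 1 for each captured mRNA molecule) from mitochondrial genes. It also had at least 3 UMIs of Vwf, at least 5 UMIs over Pecam1, Cdh5, Egfl7 and Ptprb, no UMI of the leukocyte gene Ptprc, and under 0.3% of its UMIs from the Kupffer cell genes Clec4f, Vsig4, Cd5l and C1qa. They are described against 7163 ECs that met the same other limits and had 0 Vwf UMIs, called Vwf-zero ECs. The 94 ECs with 1 Vwf UMI and the 36 with 2 belong to neither class. The study sequenced dissociated liver cells of 4 untreated mice on the 10x platform, 1 mouse and 1 library for each genotype. WT is wildtype, YAPKO and TAZKO lack YAP (gene Yap1) or TAZ (gene Wwtr1), and DKO lacks both. The knock-outs combine floxed alleles (YAP fl/fl, TAZ fl/fl) with Cre driven by the albumin promoter, which is active in hepatocytes and biliary cells and not meant to act in ECs, whose alleles were not checked here. Hepatocytes and non-parenchymal cells were isolated separately by the authors and mixed before loading, so the share of ECs in a library follows from that mixing, and the labels give neither age nor sex of these mice.

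The deposited matrices held 13657, 7711, 14418 and 9188 barcodes in WT, YAPKO, TAZKO and DKO, with 66259687, 85989454, 49022089 and 77411746 UMIs. The limits on genes and mitochondrial UMIs kept 7155, 6275, 8638 and 8294 cells, of which 2367, 1530, 2021 and 1471 were ECs. Vwf-positive cells numbered 15, 46, 13 and 22 and carried 115093, 423400, 81755 and 164772 UMIs in sum, so YAPKO gave the most cells and the most UMIs of the class. A median Vwf-positive cell held 7641, 7807, 6068 and 5442 UMIs, against 5482, 7869.5, 4035 and 5898 in Vwf-zero ECs. The Vwf-positive cells were deeper in WT and TAZKO and slightly shallower in YAPKO and DKO. Between 9 and 26 barcodes of kept cells occurred in both libraries of a pair, and 0 Vwf-positive cells had a barcode found among the kept cells of another library. No doublet caller was run. Of the Vwf-positive cells 20 carried markers of another cell type (4, 12, 1 and 3 by library), and so did 1786 of the Vwf-zero ECs. Hepatocyte genes counted for this only where they gave over 5% of the UMIs of a cell. Levels below are UMIs of a gene per 1000000 UMIs of the summed cells (CPM), and all intervals are 95% and cover counting error only.

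Von Willebrand factor is a large clotting glycoprotein that ECs of arteries, veins and portal vessels store in Weibel-Palade bodies and release on injury. The sinusoidal ECs that make up most of the liver endothelium form a fenestrated, scavenging lining and in health hold little of it. Large hepatic vessels include the hepatic artery and portal vein at the entry of the lobule and the central vein at its exit, and their ECs differ in Notch, ephrin and Wnt genes.

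The genes of the rule are given as a description. Vwf was at 956, 590.5, 917 and 679.7 CPM in WT, YAPKO, TAZKO and DKO, with up to 24, 13, 19 and 17 UMIs in a cell. Pecam1, an adhesion receptor of EC contacts, was at 695, 742, 844 and 662 CPM against 515, 593, 561 and 514 in Vwf-zero ECs, and Cdh5, the cadherin of EC junctions, was at 878, 645, 819.5 and 728 against 645, 694, 889 and 758. Pecam1 stood higher in Vwf-positive cells within each library, and Cdh5 overlapped between the classes. Of the other markers for large-vessel ECs, Gja5 (connexin 40, an arterial gap junction protein) had a UMI in 36 of the 96 cells and Fbln2 (fibulin 2, a protein of elastic matrix) in 38, with both in 21. Of the 96 cells, 38 had a UMI of neither Gja5 nor Fbln2 and under 3 UMIs of the central vein gene Rspo3, so the label rests on Vwf alone for these. Sinusoid genes were lower but not absent. Clec4g, a lectin of sinusoidal ECs, had a UMI in 91 of the 96 cells and Stab2, the hyaluronan scavenger receptor, in 65. Free RNA in the droplets gives a background for such shares. Clec4g UMIs were found in 1.11% to 3.26% of B cells (median depth 2230.5 to 2902 UMIs) and in 1.80% to 8.57% of hepatocytes (2146 to 18443 UMIs). Vwf had a UMI in 1 of 1403 B cells and in 0 of 1557 hepatocytes, and none of these had 3. Gja5 had 0 UMIs in both, and Fbln2 had a UMI in 16 of the B cells and in 0 hepatocytes.

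Across the threshold on Vwf the other vessel genes changed in steps, given here with no test. ECs with 0, 1, 2, 3, 4 and 5 or more Vwf UMIs numbered 7163, 94, 36, 31, 14 and 51. Their Gja5 levels were 0.426, 16.5, 20.1, 82.6, 129.9 and 90.6 CPM, so the 36 cells just outside the limit stood well below the 31 cells just inside it. Fbln2 was at 1.90, 45.6, 160.5, 114, 149.8 and 355 CPM and Rspo3 at 82.3, 282, 951, 546, 639 and 636 CPM, both already high at 2 UMIs of Vwf. Efnb1, a periportal ephrin, was at 198, 567, 614, 951, 929 and 862 CPM, and Stab2 at 1232, 705, 750.2, 574, 529 and 214 CPM. The cells at 5 or more had the least Stab2 and the most Fbln2 of the 6 groups.

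Yap1 and Wwtr1, the genes targeted in the hepatocytes and biliary cells of these mice, are given for every library first. Their 3' tags may lie outside the deleted part and so check nothing about the deletion. In Vwf-positive cells Yap1 had 7, 22, 3 and 8 UMIs in WT, YAPKO, TAZKO and DKO, or 60.8, 52.0, 36.7 and 48.6 CPM, against 41.2, 39.2, 60.1 and 38.0 CPM in Vwf-zero ECs. Its intervals in Vwf-positive cells overlapped between all 4 libraries, and TAZKO rested on 3 UMIs. Relative to WT, Yap1 stood at a log2 value of -0.23 (-1.5 to 1.24) in YAPKO, -0.73 (-3.31 to 1.40) in TAZKO and -0.33 (-1.98 to 1.37) in DKO. Wwtr1 was at 122, 182, 196 and 188 CPM in Vwf-positive cells and 146, 156, 144 and 157 CPM in Vwf-zero ECs, again with overlapping intervals in the Vwf-positive cells. Between the classes neither gene passed the test (Yap1 log2 difference 0.18, edgeR BH-adjusted p = 0.781, higher in 3 of 4 libraries; Wwtr1 0.08, 0.857, higher in 3 of 4).

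Vwf-positive cells were 0.634% of ECs in WT (exact binomial interval 0.355 to 1.04), 3.01% in YAPKO (2.21 to 3.99), 0.643% in TAZKO (0.343 to 1.10) and 1.5% in DKO (0.940 to 2.26). YAPKO was highest and its interval overlapped only that of DKO. The limit of 3 UMIs is reached more readily in a deeper cell. After each cell was thinned to 2000 UMIs the shares were 0.403%, 0.539%, 0.218% and 0.211%, with 9 of 2236, 8 of 1483, 4 of 1832 and 3 of 1422 cells, and all intervals overlapped. So few cells remained that these shares are too imprecise to tell whether the libraries differ at equal depth. At 5 or more Vwf UMIs YAPKO was at 1.57% (1.01 to 2.33) and WT at 0.422% (0.203 to 0.776), without overlap. With the limits of 500 to 6000 read as UMIs DKO was highest, at 1.68% (0.898 to 2.86), against 0.831% (0.172 to 2.41) in YAPKO. With 1 mouse each no difference between genotypes could be tested.

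**Figure D1:**
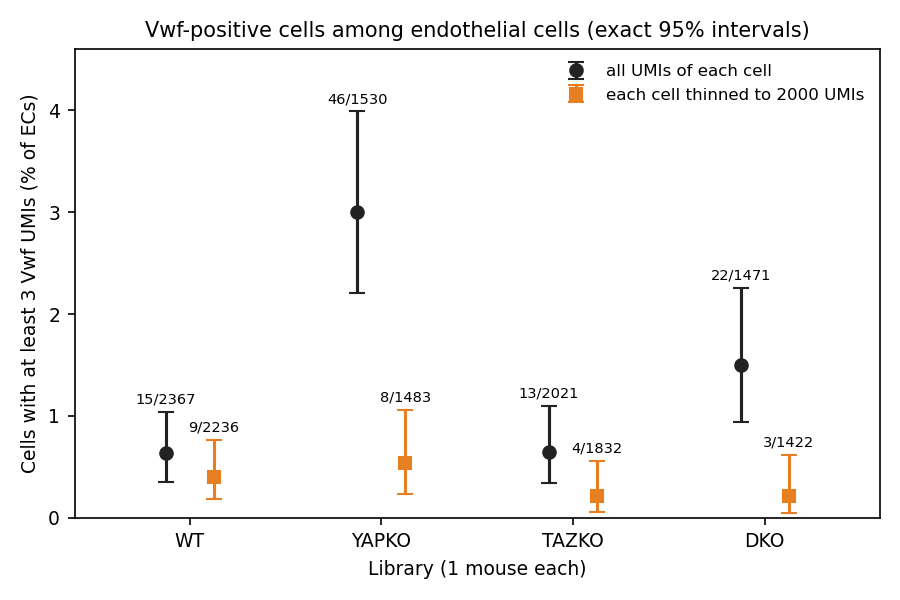
Percent of ECs with at least 3 Vwf UMIs in each library, with exact 95% binomial intervals and the counts above them, from all UMIs (black circles) and after each cell was thinned to 2000 UMIs (orange squares). YAPKO is highest at 3.01% with all UMIs, with an interval that overlaps that of DKO, and the 4 libraries lie between 0.211% and 0.539% after thinning.

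The main comparison asks which genes outside the rule differ between Vwf-positive and Vwf-zero ECs, with the 4 livers as replicates and the library as block. Of 13066 genes tested, 414 were higher (3.17%) and 793 lower (6.07%) at an edgeR BH-adjusted p under 0.05, and 336 of the higher and 737 of the lower genes had that direction in 4 of 4 libraries. Scaling by highly counted genes moved the median of all genes from -0.14 to 0.00 on the log2 scale and the calls to 578 higher and 550 lower, so each list below is read against the median of all genes, -0.14. Without YAPKO, the library with most cells, the calls were 232 higher and 320 lower; without WT 442 and without DKO 467 genes were lower. With WT and TAZKO left out together, which leaves 2 livers, 7 genes were higher and 0 lower by edgeR (693 and 998 at an unadjusted p under 0.05).

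Among genes with at least 50 UMIs, the 15 of largest difference called higher in 4 of 4 libraries were led by Gja5, Nrg1 and Fbln2. Gja5 was at 69.5, 87.4, 61.2 and 139.6 CPM in Vwf-positive cells and 0.293, 0.485, 0.675 and 0.308 in Vwf-zero ECs. The groups did not overlap, with a log2 difference of 7.53 (edgeR BH-adjusted p = 9.63e-17). Nrg1, the neuregulin ligand that ECs send to ErbB receptors, was at 235, 156, 795 and 182 CPM against 1.76, 0.889, 4.73 and 1.03. It was highest in TAZKO, and every Vwf-positive value lay above every Vwf-zero value (log2 7.18, edgeR BH-adjusted p = 1.26e-23, 4 of 4). Fbln2 was at 34.8, 217, 342 and 443 CPM against 1.54, 1.70, 2.03 and 2.57, lowest in WT, without overlap (log2 6.82, edgeR BH-adjusted p = 1.13e-20, 4 of 4). Edn1, which encodes the vasoconstrictor endothelin 1, was at 634, 300.0, 257 and 322 CPM against 1.98, 8.08, 0.900 and 3.70. WT held the highest level, the groups did not overlap, and the log2 difference was 6.48 (edgeR BH-adjusted p = 7.78e-19, 4 of 4; 7.40 without YAPKO). Atp13a3, a polyamine transporter, was at 348, 583, 1138 and 1748 CPM against 11.4, 9.70, 26.0 and 26.7. In Vwf-positive cells it was lowest in WT and highest in DKO, and the classes did not overlap (log2 5.54, edgeR BH-adjusted p = 7.52e-24, 4 of 4). Ly6c1, a surface antigen of ECs outside the sinusoids, was at 443, 425, 294 and 625 CPM against 13.1, 21.7, 1.91 and 7.81, again without overlap (log2 5.23; 5.85 without YAPKO).

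The other 9 were Thsd7a (log2 6.71; 7.40 without YAPKO), Cd200, an inhibitory ligand for myeloid cells (6.33), Mgp, an inhibitor of vessel calcification (6.02), the chemerin receptor Cmklr1 (6.0), Pdlim3 (5.20; 6.21 without DKO), Lmo7 (4.97), Megf6 (4.97), Cyp1a1, a xenobiotic oxidase induced through the aryl hydrocarbon receptor (4.97), and the phosphatase Ptprr (4.94). All were higher in 4 of 4 libraries and kept the call with any library left out. The direction rested on 1 UMI in Vwf-positive cells for Thsd7a in WT, Ptprr in YAPKO and Cyp1a1 in DKO. Cd200 had 40 UMIs in 11 cells, 27.5% of them in 1, and Ptprr 22 UMIs in 10 cells, 22.7% in 1. Mgp rested on 6 cells, with 42.6% of its UMIs in 1 of them, and its difference was 5.05 without WT and 6.68 without YAPKO. Cyp1a1 varied widely between libraries, at 182, 85.0, 563 and 6.07 CPM in Vwf-positive cells and 3.37, 1.86, 22.5 and 0.411 in Vwf-zero ECs. Both classes were highest in TAZKO and lowest in DKO.

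**Figure D2:**
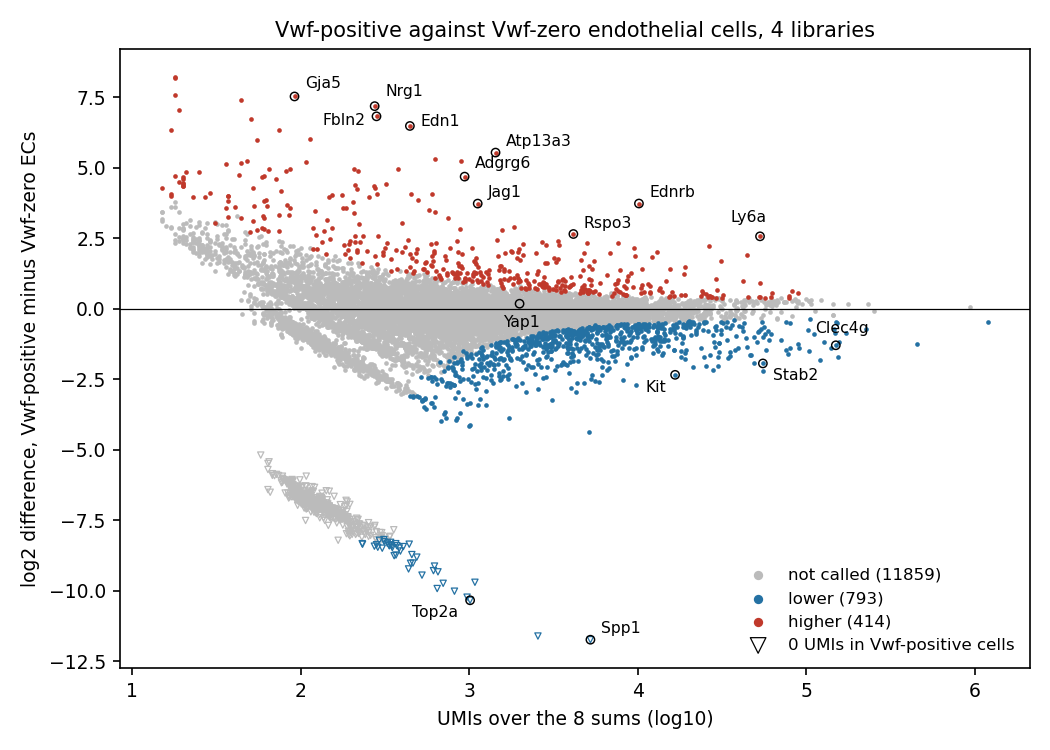
Log2 difference of Vwf-positive against Vwf-zero ECs for the 13066 tested genes, against their summed UMIs on a log10 axis, red where called higher (414), blue where called lower (793), and as open triangles where Vwf-positive cells had 0 UMIs and the fitted value is no measure of size. Among genes with at least 50 UMIs called higher in 4 of 4 libraries, Gja5, Nrg1 and Fbln2 lie highest. Yap1 lies near 0.

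Of these 15 genes 12 have a promoter in the RefSeq table of build GRCm38, 17 windows of 250 bases before to 50 bases after a start. The motif of TEAD factors, the DNA-binding partners of YAP and TAZ, was searched as GGAATG on both strands and that of SOX factors as AACAAT, also on both. The TEAD letters were found in 3 of the 17 windows, those of Edn1, Cd200 and Pdlim3, and the SOX letters in 0. Of all 32851 promoters of this length, 14.7% hold the TEAD letters and 10.7% the SOX letters. A match is a description of the sequence and not a bound site. Windows are shown for the arterial gene Gja5 and the matrix gene Fbln2, the largest and the next largest with a promoter in the table, and for the 3 genes with TEAD letters, written 5' to 3' in lower case with the TEAD letters in capitals. They lie at Gja5, chr3:97032152-97032451 on the + strand, Fbln2, chr6:91212514-91212813 on the + strand, Edn1, chr13:42301226-42301525 on the + strand, Cd200, chr16:45409004-45409303 on the - strand, Pdlim3, chr8:45885237-45885536 on the + strand.
Gja5: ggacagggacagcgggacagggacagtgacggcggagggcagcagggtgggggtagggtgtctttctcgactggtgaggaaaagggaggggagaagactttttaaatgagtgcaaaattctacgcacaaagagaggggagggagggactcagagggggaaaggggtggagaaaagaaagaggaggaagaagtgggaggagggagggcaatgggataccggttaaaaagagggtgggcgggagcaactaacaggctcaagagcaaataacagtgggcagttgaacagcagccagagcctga
Fbln2: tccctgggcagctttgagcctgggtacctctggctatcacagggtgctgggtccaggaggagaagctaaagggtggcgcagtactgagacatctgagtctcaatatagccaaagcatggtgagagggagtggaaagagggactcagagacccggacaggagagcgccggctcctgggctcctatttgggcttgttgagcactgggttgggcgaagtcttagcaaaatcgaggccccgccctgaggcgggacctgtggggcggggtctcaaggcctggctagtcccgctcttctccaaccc
Edn1: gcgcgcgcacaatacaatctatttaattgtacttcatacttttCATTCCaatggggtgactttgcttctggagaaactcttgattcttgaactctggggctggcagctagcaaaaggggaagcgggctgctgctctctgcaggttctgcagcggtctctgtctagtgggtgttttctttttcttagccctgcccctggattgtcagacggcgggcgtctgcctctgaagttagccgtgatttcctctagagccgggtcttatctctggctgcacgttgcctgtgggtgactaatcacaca
Cd200: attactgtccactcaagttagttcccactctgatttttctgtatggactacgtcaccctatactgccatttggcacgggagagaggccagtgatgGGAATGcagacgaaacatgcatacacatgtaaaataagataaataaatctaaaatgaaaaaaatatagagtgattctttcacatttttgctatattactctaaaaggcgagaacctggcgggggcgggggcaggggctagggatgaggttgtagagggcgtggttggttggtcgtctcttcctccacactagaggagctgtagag
Pdlim3: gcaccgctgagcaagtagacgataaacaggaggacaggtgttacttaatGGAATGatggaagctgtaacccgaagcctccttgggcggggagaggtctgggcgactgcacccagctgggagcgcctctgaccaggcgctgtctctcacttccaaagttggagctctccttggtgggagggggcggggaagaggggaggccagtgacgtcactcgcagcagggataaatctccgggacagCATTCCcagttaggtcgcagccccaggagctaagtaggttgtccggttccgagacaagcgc

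Genes of arteries were higher as a group. Of the 11 genes on the arterial list 9 were tested, and 8 were higher and 0 lower, with a median log2 difference of 1.61. Jag1, the Notch ligand of arterial ECs, was at 313, 269, 232 and 339.9 CPM in Vwf-positive cells and 16.3, 21.4, 25.8 and 18.7 in Vwf-zero ECs. All 4 libraries were alike and far apart from the other class (log2 3.73, edgeR BH-adjusted p = 8.74e-18). Gja4 (connexin 37) was at 382, 477, 355 and 558 CPM against 123, 353, 158 and 287, higher within each library (log2 0.84, edgeR BH-adjusted p = 1.30e-04). Sox17, a transcription factor of arterial identity, was at 122, 187, 367 and 194 CPM against 51.1, 55.0, 77.4 and 69.9, highest in TAZKO and without overlap (log2 1.61, edgeR BH-adjusted p = 1.17e-08). The kinase Bmx stood at log2 7.59 on 14 UMIs and was too low to test without WT, YAPKO or TAZKO, and Hey1, a Notch effector, at 3.29 on 9 UMIs (3 of 4 libraries). Efnb2, the arterial ephrin, and Dll4, a further Notch ligand, were higher by 0.77 and 0.67. Unc5b was not called (-0.82), and Hey2 and Sema3g were too low to test. Without DKO or without YAPKO 5 of the list were called. Efnb2 missed the threshold without DKO (edgeR BH-adjusted p = 6.89e-02), Hey1 without YAPKO or DKO (1.27e-01 and 1.15e-01), and Dll4 without YAPKO, TAZKO or DKO (7.73e-02, 1.46e-01 and 1.33e-01).

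Examples in the next lists are the called members with most UMIs. Of the 14 Notch genes 12 were tested, and 6 were higher and 0 lower (median 0.52). Hes1, a direct Notch target, was at 434, 309, 306 and 625 CPM against 225, 185, 223 and 294, higher in 4 of 4 libraries (log2 0.73, edgeR BH-adjusted p = 2.97e-04). The list shares Jag1, Dll4 and Hey1 with the arterial one, and 3 of it were called without YAPKO and 3 without DKO. Of 20 endothelial transcription factors 17 were tested, 5 were higher and 1 lower (median 0.21). Mecom was at 356, 168, 404 and 437 CPM against 46.1, 46.9, 81.6 and 56.4, without overlap (log2 2.37, edgeR BH-adjusted p = 5.05e-13), and Foxp1 at 452, 328, 575 and 564 against 169, 165, 229 and 206, also without overlap (log2 1.16). Nr2f2, the factor of venous identity, was at 434, 689.7, 1566 and 965 CPM against 469.6, 534, 823 and 532. Both classes were highest in TAZKO and their ranges overlapped (log2 0.43, edgeR BH-adjusted p = 0.0435, 3 of 4 libraries). Its call was lost without YAPKO, TAZKO or DKO (2.01e-01, 2.35e-01 and 3.96e-01), and the list then had 3 higher without YAPKO or DKO and 0 lower without WT, YAPKO or TAZKO.

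Genes of portal-side and of continuous endothelium were higher in both of their lists. Of 8 periportal EC genes, 6 were higher and 1 lower (median 1.91), and of 12 genes of continuous endothelium and caveolae, 10 were higher and 0 lower (median 1.55). Ly6a (Sca-1), on both lists, was at 5943, 7581, 5406 and 7040.0 CPM against 1188, 1371, 757 and 799.6. Every library was several times above its Vwf-zero ECs (log2 2.57, edgeR BH-adjusted p = 1.98e-17, 4 of 4). Ntn4, a secreted netrin of basement membranes, was at 1251, 975, 1590.1 and 1001 CPM against 232, 261, 413 and 212 (log2 2.0, edgeR BH-adjusted p = 6.98e-15, 4 of 4), and Ltbp4, which tethers TGF-beta to elastic fibres, at 643, 907, 1211 and 1007 against 276, 299.9, 286 and 144 (log2 1.82, edgeR BH-adjusted p = 6.49e-11, 4 of 4). Neither gene overlapped between the classes. Cavin2, a coat protein of caveolae, was at 2598, 2437, 2422 and 1912 CPM against 1108, 1094, 1315 and 1102 (log2 0.90), and the tetraspan protein Tm4sf1 at 2737, 2248, 1443 and 2634 against 691, 788, 421 and 683 (log2 1.68), both higher in 4 of 4 libraries and without overlap.

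Genes of vessel tone and of Weibel-Palade bodies moved in both directions. Of 14 genes of flow response, tone and coagulation 13 were tested, and 8 were higher and 3 lower (median 1.51). Ednrb, the endothelin B receptor, was at 1607, 2631, 2324 and 3332 CPM against 91.9, 170.3, 119 and 381, without overlap (log2 3.73, edgeR BH-adjusted p = 8.35e-21, 4 of 4), beside its ligand gene Edn1 above. Klf2, a transcription factor induced by laminar flow, was at 1156, 888, 844 and 589 CPM against 506, 621, 583 and 421. Only DKO overlapped the Vwf-zero range (log2 0.56, edgeR BH-adjusted p = 0.0026, 4 of 4; without WT 1.06e-01). F8, coagulation factor VIII, whose carrier in plasma is von Willebrand factor, was lower at 904, 791, 538 and 546 CPM against 1249, 1291, 864 and 1094 (log2 -0.83, edgeR BH-adjusted p = 9.12e-06, 4 of 4). Of the 8 Weibel-Palade genes, 4 were higher and 1 lower (median 0.93). Cd63, a membrane protein of these bodies, was at 313, 246, 281 and 176 CPM against 76.8, 66.9, 22.8 and 95.8 (log2 1.81, edgeR BH-adjusted p = 7.37e-08, 4 of 4), and Igfbp7 was lower at 2919, 2955, 979 and 2239 against 4344, 4012, 2077 and 4465 (log2 -0.87). Both moved the same way within each of the 4 libraries, and Cd63 narrowly missed the threshold with the robust form of the fit.

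Genes of veins and of the central vein were split. Of 13 listed 12 were tested, and 6 were higher and 4 lower (median 0.47). Fabp4, a fatty acid carrier of venous and capillary ECs, was at 5196, 3963, 2801 and 3259 CPM against 766, 1261, 704 and 961, without overlap (log2 1.92, edgeR BH-adjusted p = 1.81e-13, 4 of 4). Rspo3, the R-spondin by which central vein ECs raise Wnt signalling in nearby hepatocytes, was at 1225, 602, 61.2 and 461 CPM against 86.8, 82.3, 80.7 and 77.6. It was higher in WT, YAPKO and DKO and slightly lower in TAZKO (log2 2.65, edgeR BH-adjusted p = 5.21e-11, 3 of 4), and 17.2% of its 477 UMIs came from 1 cell and all from 16 cells. With the robust form of the fit it was not called. Among the others, named after their values were seen, the Wnt ligand Wnt9b was higher (log2 1.93, edgeR BH-adjusted p = 2.03e-04, 4 of 4), while Wnt2 (-1.43, 2.17e-05, lower in 4 of 4) and the receptor Kit (-2.34, 1.74e-09, lower in 4 of 4), both of central sinusoids, were lower. Without YAPKO Wnt2 and Kit stood at -2.08 and -3.57. The other called members of the list were Nr2f2, Thbd and Cdh13, higher, and Plpp1 and Nrp2, lower. Cdh13, which the paper gives with Wnt2, Kit and Plpp1 as a pericentral EC gene, thus went the other way.

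Matrix genes did not move as a group: of 23 listed 22 were tested, 6 were higher and 7 lower (median -0.25), and without WT, YAPKO or DKO 4 were lower each time. Beside Ltbp4 and Fbln2, the most counted was Sparc, a matrix-binding glycoprotein, which was lower at 1746, 1915, 697 and 1219.9 CPM against 2723, 2765, 1083 and 3045 (log2 -0.90, edgeR BH-adjusted p = 3.46e-06, 4 of 4). TAZKO held the least in both classes. Of 13 junction genes, 4 were higher and 3 lower (median 0.16). Jam2, an adhesion molecule of EC contacts, was at 1486, 1455, 697 and 1281 CPM against 358, 501, 310.1 and 426 (log2 1.49, edgeR BH-adjusted p = 4.12e-11, 4 of 4). Claudin 5 (Cldn5), a tight junction protein, was lower at 278, 385, 404 and 376 CPM against 575, 421, 633 and 436 (log2 -0.55, edgeR BH-adjusted p = 0.0126, 4 of 4), a call lost with any 1 library left out (5.73e-02 to 2.61e-01). The junction list had 1 lower without WT or DKO and 0 without YAPKO.

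Of 12 leukocyte adhesion genes 10 were tested, 2 were higher and 3 lower (median -0.01). Vcam1, which binds leukocyte integrins, was at 304, 236, 281 and 212 CPM against 87.7, 169.5, 70.4 and 105, without overlap (log2 1.04, edgeR BH-adjusted p = 9.87e-05, 4 of 4). The chemokine Cxcl12 was lower at 43.4, 66.1, 12.2 and 42.5 against 193, 95.3, 197 and 133 (log2 -1.48, 4 of 4; -2.33 without YAPKO). A cell in which its RNA was most abundant gave 51.2% of its 41 UMIs. With cells that carried markers of another type left out of both classes, the difference of Cxcl12 was 0.11. P-selectin (Selp), kept in Weibel-Palade bodies, was higher on 36 UMIs (log2 1.62, edgeR BH-adjusted p = 0.0153, 4 of 4), but not without WT, TAZKO or DKO (8.16e-02, 9.28e-02 and 1.75e-01), and at 2.67 without YAPKO, nor with the robust form of the fit. The adhesion list then had 1 higher. Of 15 TGF-beta and BMP genes, 6 were higher and 4 lower (median 0.31), with 2 lower without WT or DKO. Bmp2, the sinusoidal ligand that drives hepcidin in hepatocytes, was at 825, 857, 501 and 455 CPM against 1701, 1714, 1650.4 and 1671 (log2 -1.47, edgeR BH-adjusted p = 5.95e-10, lower in 4 of 4), and the co-receptor endoglin (Eng) at 1216, 848, 575 and 607 against 1413, 1384, 1338 and 1322 (log2 -0.89). Id2, a target of BMP signals, was higher at 330.2, 246, 563 and 1007 CPM against 164, 125, 399 and 395 (log2 0.88), within every library.

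Of 12 VEGF and angiopoietin genes 10 were tested, 3 were higher and 4 lower (median -0.15); 1 was higher without WT, YAPKO or DKO. Kdr, the main VEGF receptor, was at 999, 975, 807 and 710.1 CPM against 2448, 2194, 2591 and 1958. Every library was below its Vwf-zero ECs, without overlap (log2 -1.5, edgeR BH-adjusted p = 2.61e-11), and the co-receptor Nrp1 was lower by a log2 difference of -0.78. Flt1, the decoy VEGF receptor, was at 834, 751, 1186 and 759 CPM against 633, 607, 697 and 478, above its Vwf-zero ECs in each library by a smaller step (log2 0.40, edgeR BH-adjusted p = 0.0317), and lost the call with any 1 library left out (6.74e-02 to 2.34e-01).

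The scavenger program of sinusoidal ECs was lower. Of its 16 genes 14 were lower and 0 higher (median -1.40), and the count was the same with any 1 library left out. Stab2 was at 382, 427, 269 and 267 CPM in Vwf-positive cells and 1309, 1242, 1197 and 1145 in Vwf-zero ECs. Each library was far below its Vwf-zero ECs and the groups did not overlap (log2 -1.94, edgeR BH-adjusted p = 6.70e-13). Clec4g was at 1712, 1906, 1076 and 1086 CPM against 3808, 3674, 2355 and 3094, and Fcgr2b, the inhibitory Fc receptor that clears immune complexes, at 1034, 933, 526 and 753 against 2911, 2548, 2488 and 2761. Both were lower in 4 of 4 libraries and did not overlap (log2 -1.30 and -1.83, edgeR BH-adjusted p = 4.62e-10 and 6.10e-13). Lyve1, a hyaluronan receptor, fell by 2.02 on the log2 scale, with its 141 UMIs in 23 of the 96 cells, and the mannose receptor Mrc1 fell by 1.39. Gata4, a transcription factor that sets sinusoidal identity, was at 174, 125, 85.6 and 194 CPM against 154, 163, 227 and 152 and was not called (log2 -0.31, edgeR BH-adjusted p = 0.397, lower in 2 of 4), nor was Tfec (-0.39, 0.365, lower in 3 of 4). In sum the list was at 12789.7, 13203, 10336 and 9164 CPM against 27017, 25662, 25933 and 24269.5. Vwf-positive cells thus still held scavenger RNA at an appreciable level in each library.

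**Figure D3:**
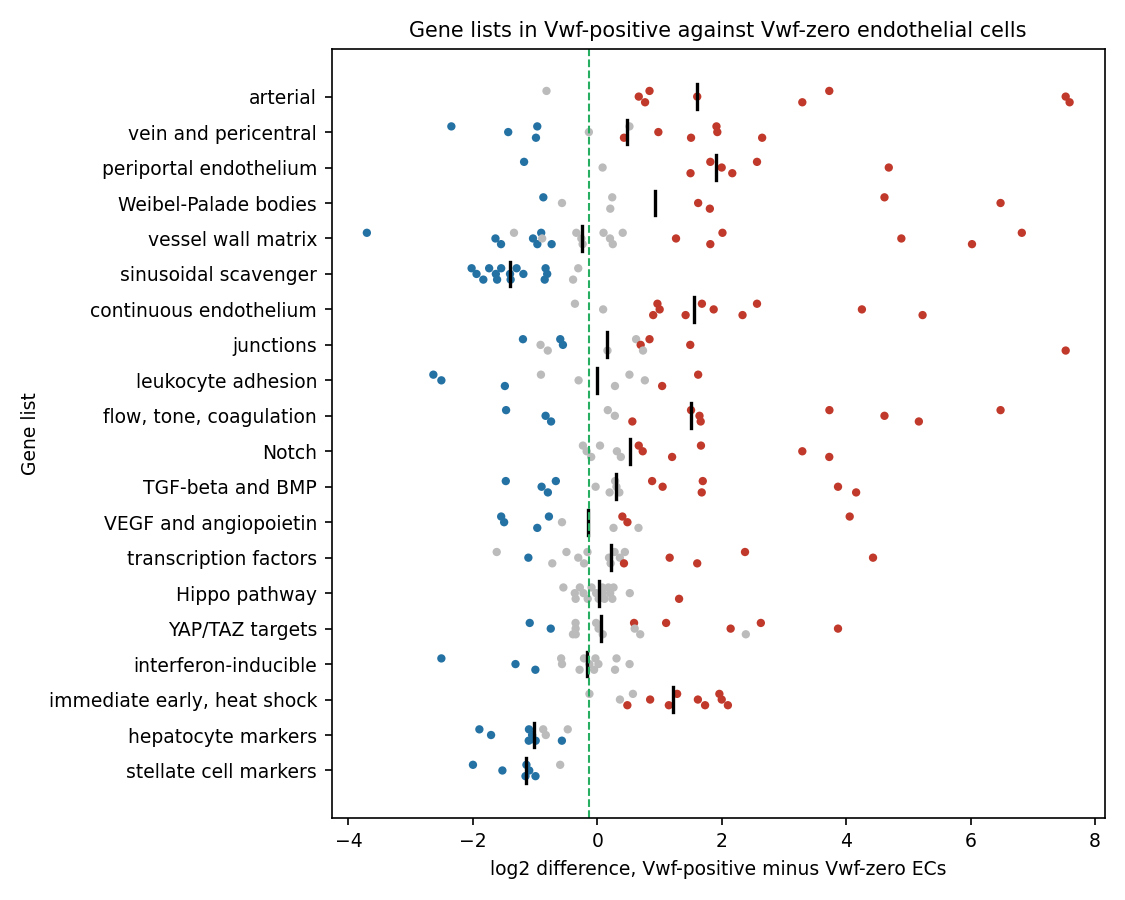
Log2 difference between Vwf-positive and Vwf-zero ECs for the tested members of 20 gene lists, 1 dot per gene, red where called higher, blue where called lower and grey otherwise, with list medians as black bars and the median of all genes, -0.14, as a green dashed line (genes with 0 UMIs in Vwf-positive cells are not drawn). Arterial, periportal and continuous endothelium genes lie to the right and scavenger genes to the left.

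RNA of other cell types moved with the classes. Hepatocyte markers summed to 3362, 1856, 6201 and 4151 CPM in Vwf-positive cells and 8938, 5452, 9311 and 8981 in Vwf-zero ECs, with 7 of 10 lower and 0 higher (median -1.02), and Alb as the most abundant (log2 -1.71). Of the UMIs in Vwf-positive cells, 1 cell gave 287 of 507 in TAZKO and 406 of 684 in DKO, and 2 cells gave 258 and 208 of 786 in YAPKO. None of these cells was among the 20 counted as carrying markers of another type. Stellate cell markers summed to 921, 1105, 220.2 and 479 CPM against 2484, 1511, 1773 and 1394, with 6 of 7 lower and 0 higher (median -1.14), and 1 cell gave 307 of the 468 UMIs in YAPKO. Dcn, the most counted of the stellate genes called, had 58.9% of its UMIs in 1 cell and was at log2 -1.52 (-2.18 without YAPKO). It was at 0.20 with cells that carried markers of another type left out of both classes. Smooth muscle and fibroblast markers had 2 of 6 tested lower (0 or 1 without WT, YAPKO or DKO), Kupffer markers 1 of 2 (0 without WT or YAPKO), and markers of neutrophils (2 tested), platelets (3) and lymphatic vessels (1) had none called. Their medians were -1.56, -0.97, -0.45, -0.06 and -1.62. Without YAPKO the smooth muscle and fibroblast median was -0.21 and the Kupffer median -0.22. Biliary markers had 1 of 4 tested lower, at a median of -0.57 with the 3 genes at 0 UMIs set to their bound, while B cell, T and NK cell and mesothelial markers had 0 UMIs in Vwf-positive cells and none was tested. With cells that carried markers of another type left out of both classes, 348 genes were higher and 557 lower. The hepatocyte list had 0 lower and 1 higher of 10, and the stellate list 1 lower of 6. The scavenger list had 14 lower of 16 (median -1.83), and 6 of 8 arterial genes tested were higher. This fit left out 1786 Vwf-zero ECs but kept the Vwf-positive cells with 406, 287, 258 and 208 hepatocyte UMIs. Alb was then no longer called, nor were Cxcl12, Dcn, Dll4, Nr2f2, Flt1, Dusp1, Crim1 and Tead2, nor Coq8a, Abcb4 and Lpl of the lowest genes, and Spp1 did not pass the filter for the test. With Vwf-zero cells of matched depth the hepatocyte list had 0 of 10 called (median 0.07) and the stellate list 3 of 7 lower (-0.78).

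Of the 15 genes of largest difference called lower in 4 of 4 libraries, 14 are described. All had 0 UMIs in Vwf-positive cells, so a library with any UMI in Vwf-zero ECs counts as lower. For these genes the 4 of 4 therefore adds no support. Each fold is a bound, the UMIs that Vwf-positive cells would hold at the Vwf-zero levels of their own libraries over a floor of 3 UMIs. Spp1 (osteopontin), abundant in biliary cells, was at least 19.1-fold lower, from 232, 26.9, 152 and 40.7 CPM in Vwf-zero ECs. The biliary list to which it belongs came from 57, 50, 48 and 16 of the Vwf-zero cells. This bound and those below cover the counting of UMIs and not the sampling of cells. They can overstate a decrease where few cells hold the RNA of a gene. Igha, the constant chain of IgA, was at least 18.1-fold lower and Jchain at least 6.97-fold, but nearly all of their UMIs lay in YAPKO and TAZKO (Igha 2, 1232, 1324 and 1 UMIs). Among genes of dividing cells, Top2a was at least 7.54-fold and Mki67 at least 6.03-fold lower, and the linker histone H1f5, Prc1, Ube2c, Birc5 and Nusap1 had bounds between 3.02-fold and 5.69-fold. The rest were the interferon-inducible GTPase gene Gm4841 (at least 4.69-fold), Coq8a, the phospholipid transporter Abcb4 and lipoprotein lipase (Lpl), the last with a bound of 3.0-fold. Without YAPKO, where the Vwf-positive cells give most UMIs, 10 of the 14 were no longer called (Top2a, Mki67, H1f5, Prc1, Ube2c, Coq8a, Abcb4, Birc5, Nusap1 and Lpl, edgeR BH-adjusted p between 7.36e-02 and 3.97e-01), and Igha and Jchain could not be tested without YAPKO or without TAZKO, nor Gm4841 without TAZKO or without DKO. With Vwf at 2 or more UMIs Spp1 and Gm4841 were not called, and DESeq2 did not call 8 (Igha, Jchain, H1f5, Gm4841, Ube2c, Birc5, Nusap1 and Lpl). Of these genes 11 have a promoter in the RefSeq table, with 14 windows. The TEAD letters were found in 3 of the windows (Ube2c, Coq8a and Nusap1) and the SOX letters in 1 (Top2a).

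The Vwf-positive cells differed among themselves. Gja5 had a UMI in 5 of 15, 17 of 46, 3 of 13 and 11 of 22 cells in WT, YAPKO, TAZKO and DKO, or 33.3%, 37.0%, 23.1% and 50%, and in 13.3%, 10.9%, 7.69% and 19.0% after thinning to 2000 UMIs. The intervals overlapped between all libraries in both forms. Rspo3 had 3 or more UMIs in 13 cells, and only 1 of these also had a Gja5 UMI. For description, with the limit set after the values were seen and with no test, the cells were split into 36 with a Gja5 UMI (5, 17, 3 and 11 by library), 12 with 3 or more Rspo3 UMIs and no Gja5 UMI (2, 5, 1 and 4), and 48 with neither (8, 24, 9 and 7). Their sums held 308087, 74387 and 402546 UMIs, and markers of another type were present in 5, 1 and 14 of the cells.

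The 12 Rspo3 cells held more RNA of other central vein genes and less of several periportal genes than the other cells. In the order Gja5, Rspo3 and neither, Rspo3 was at 16.2, 6305 and 7.45 CPM, Wnt2 at 3.25, 901 and 24.8, Wnt9b at 0, 309 and 14.9 and Kit at 9.74, 672 and 49.7. Selp was at 9.74, 417 and 4.97 CPM and the thrombin cofactor thrombomodulin (Thbd) at 321, 887 and 251. Bmp4 was at 0, 188 and 7.45 and Tgfb2, with 13 UMIs in 7 of the 12 cells, at 0, 175 and 0. Rspo3 set the split, and the others were picked as high in the Rspo3 cells. Ltbp4 was at 1097, 134 and 932 CPM, Efnb1 at 1100.3, 242 and 867 and Ntn4 at 1172, 242 and 1175. Efnb2 was at 208, 0 and 191, Ly6c1 at 539, 0 and 477, Cldn5 at 448, 0 and 378 and Lyve1 at 156, 0 and 231. These were picked as low in the Rspo3 cells, where Efnb2, Ly6c1, Cldn5 and Lyve1, from other lists, had 0 UMIs, a level of up to 40.3 CPM by 3 UMIs. Vwf itself was at 636, 1183 and 653 CPM and Gja4 at 499.9, 874 and 368, present in each group. Cells with a Gja5 UMI had the most Jag1, 490.1, 67.2 and 171 CPM, and Fbln2, 458, 202 and 102. Stab2 was at 188, 215 and 539, highest in the cells with neither.

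**Figure D4:**
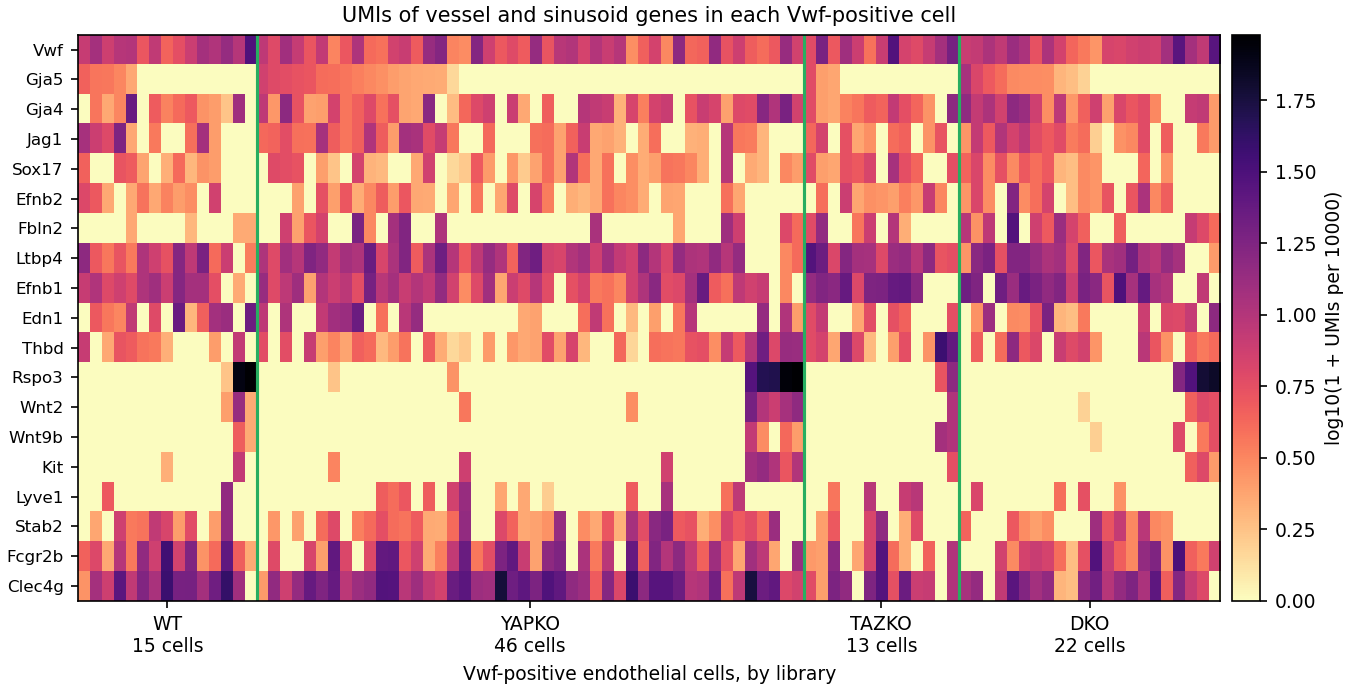
UMIs per 10000 of vessel and sinusoid genes, on a log10 scale with 1 added, in each of the 96 Vwf-positive cells, with cells as columns by library, sorted by Gja5 and then Rspo3. Gja5 and Rspo3 mark mostly different cells, and cells with much Rspo3 also hold Wnt2, Wnt9b or Kit.

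A test of cells with a Gja5 UMI against cells with none was possible in WT, YAPKO and DKO; TAZKO was left out, with 3 cells on the Gja5 side. Of 2172 genes tested, 7 were higher (0.322%) and 5 lower (0.23%) at an edgeR BH-adjusted p under 0.05. Cst3, the secreted protease inhibitor cystatin C, was at 5902, 4864 and 4222 CPM against 2760.1, 1809.9 and 1831, higher in 3 of 3 libraries and without overlap (log2 1.26, edgeR BH-adjusted p = 5.16e-04). Jag1 was at 723, 483 and 464 CPM against 147, 146 and 153, again without overlap and higher in 3 of 3 (log2 1.85, edgeR BH-adjusted p = 0.00452). Fbln2 was at 30.1, 405 and 655 CPM against 36.6, 108 and 122, higher in YAPKO and DKO and not in WT (log2 1.97, edgeR BH-adjusted p = 0.0154, 2 of 3). Also higher were the transcription factors Sox4 (log2 1.67) and Egr1 (1.58), Atp13a3 (1.56) and the taurine transporter Slc6a6 (1.34), all in 3 of 3 libraries. Lower was Rspo3, at 0, 32.2 and 0 CPM against 1722, 933 and 1159.8 (log2 -5.93, edgeR BH-adjusted p = 6.28e-06, 3 of 3), together with Wnt2 (-5.15), the galectin Lgals1 (-2.57), Stab2 (-1.52) and Eng (-1.16). The counts rest on few cells: without DKO 0 genes were called either way by edgeR (53 higher and 59 lower at an unadjusted p under 0.05), without WT 4 and 2, without YAPKO 24 and 23, and DESeq2 called Cst3 and Rspo3 alone. With cells that carried markers of another type left out, and also with no filter on low counts, 0 genes were higher and 1 lower, so none of the higher calls was kept. By list, 1 of 5 arterial genes tested was higher (median 0.42), 2 of 9 vein and pericentral genes (-0.65) and 1 of 15 scavenger genes (-0.78) were lower, and 0 of 7 Hippo genes was called (-0.11). The largest median, 0.81, was that of the immediate early and heat shock list (1 of 11 higher, Egr1), and markers of hepatocytes (0.46, 0 of 5 called) and stellate cells (0.49, 0 of 5) also stood above the median of 0.02 over all genes tested.

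Of 20 Hippo pathway genes, among them the kinases Lats1, Lats2, Stk3 and Stk4, their adaptors and the TEAD factors, 19 were tested, and 1 was higher and 0 lower (median 0.02 against -0.14 for all genes), a count near the 3.17% higher among all genes tested. That gene, Tead2, was at 34.8, 35.4, 48.9 and 66.8 CPM against 15.4, 15.4, 20.8 and 17.2. DKO was highest and the groups did not overlap (log2 1.31, edgeR BH-adjusted p = 0.00304, 4 of 4), but it rested on 34 UMIs and missed the threshold without DKO (7.14e-02), where 0 of the list were called. Of 22 YAP and TAZ target genes 18 were tested, 5 were higher and 2 lower (median 0.05), beside 3.17% higher and 6.07% lower among all genes tested. In this list 3 were higher without YAPKO, and 0, 1 and 1 were lower without WT, TAZKO and DKO. Crim1, a transmembrane BMP antagonist, was at 660.3, 515, 709 and 467 CPM against 343, 351, 391 and 321, without overlap (log2 0.59, edgeR BH-adjusted p = 0.00145, 4 of 4). Ccn1 (CYR61), a matricellular protein and classic YAP target, was at 313, 28.3, 36.7 and 42.5 CPM against 47.2, 9.13, 19.9 and 4.83. WT was highest in both classes, and Vwf-positive cells were higher within each library (log2 2.14, edgeR BH-adjusted p = 5.68e-07), with 24.1% of 58 UMIs from 1 cell. Ccn2 (CTGF), its relative, was at 235, 137, 0 and 12.1 CPM against 124, 133, 23.1 and 43.5, high in WT and YAPKO in both classes, and was not called (log2 0.02, edgeR BH-adjusted p = 0.976, higher in 2 of 4). Asap1 was lower (log2 -0.75, edgeR BH-adjusted p = 0.00389, 4 of 4), but not without WT (7.78e-02).

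Of 14 interferon-inducible genes, 0 were higher and 3 lower (median -0.17), beside 6.07% lower among all genes tested. Rsad2 was at 43.4, 146, 12.2 and 48.6 CPM against 165, 195, 119.7 and 91.4 (log2 -0.99, edgeR BH-adjusted p = 0.00264, lower in 4 of 4; without WT 9.79e-02; log2 -1.76 without YAPKO). The chemokine Cxcl10 was at 26.1, 44.9, 0 and 0 against 104, 195, 74.9 and 76.0, with 0 UMIs in TAZKO and DKO (log2 -2.51; -3.46 without YAPKO), and Ifit2 was lower at log2 -1.31. Immediate early genes, which cells induce within minutes of many stimuli, tissue dissociation among them, were listed with the heat shock genes Hspa1a and Hspa1b: 9 of the 12 were higher and 0 lower (median 1.22), and neither heat shock gene was called. Fos was at 1095, 63.8, 159 and 297 CPM against 261, 27, 26.6 and 48.8. WT was far above the knock-out libraries in both classes, and Vwf-positive cells were higher within each library (log2 1.96, edgeR BH-adjusted p = 2.14e-10). Egr1 was at 851, 70.9, 97.9 and 309.5 CPM against 232, 40.6, 40.2 and 37.8, with the same order of classes (log2 1.73, edgeR BH-adjusted p = 1.59e-07, 4 of 4). Dusp1 was at the edge of the threshold (log2 0.48, edgeR BH-adjusted p = 0.0495, 4 of 4) and lost the call without WT, YAPKO or DKO (4.21e-01, 2.34e-01 and 1.25e-01). With the robust form of the fit Egr1 narrowly missed the threshold. For Fos and Egr1, 20.9% and 17.6% of the UMIs came from 1 cell. By list, 6 were called without WT and 6 without YAPKO.

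Between the genotypes each value compares 1 mouse with 1 mouse, so no test was made. Among genes with at least 30 UMIs over both libraries, 231 of 3430 were at least 2 times higher in YAPKO than in WT (6.73%) and 83 were at most 0.5 times (2.42%). For TAZKO the counts were 88 (7.25%) and 106 (8.73%) of 1214, and for DKO 112 (6.06%) and 79 (4.28%) of 1847. All 3 comparisons share the WT library, with 15 cells. Fbln2 was among the 5 genes of largest increase in each knock-out library, at log2 ratios to WT of 2.64 (1.24 to 4.55), 3.30 (1.79 to 5.27) and 3.67 (2.25 to 5.59). WT had 4 UMIs in 4 cells and DKO 73 in 13, while Vwf-zero ECs stood between 1.54 and 2.57 CPM in every library. Igfbp5, an IGF-binding protein, had 139 UMIs in YAPKO and 162 in DKO but 0 in WT, and 40.3% and 57.4% of them came from 1 cell. The others of largest increase were the cartilage glycoprotein gene Cnmd, 3.71 (1.81 to 6.77), the interferon-inducible Ifi27l2a, 3.37 (1.47 to 6.44), and the vault protein gene Mvp, 3.33 (0.76 to 8.67), in YAPKO; the desaturase Scd1, 3.27 (2.12 to 4.66) (47.9% of its UMIs from 1 cell), Gm13889, 3.35 (1.84 to 5.32) (37.9% from 1 cell), and the lipopolysaccharide-binding protein gene Lbp, 2.41 (1.32 to 3.66), in TAZKO; and Rflnb, with 42 UMIs against 0 (40.5% from 1 cell), in DKO. Cnmd, Scd1, Lbp and Rflnb also stood higher in the Vwf-zero ECs of the same libraries (Rflnb 5.55 CPM in DKO against 1.83 in WT).

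Among the 5 largest decreases were heat shock genes in YAPKO and DKO and Rspo3 in TAZKO. The heat shock gene Hspa1b had 104 UMIs in WT, 1 in YAPKO and 10 in DKO, and Hspa1a 41, 5 and 3. Their log2 ratios were -8.58 (-13.90 to -6.07) and -4.91 (-6.61 to -3.58) in YAPKO and -3.90 (-5.00 to -2.96) and -4.29 (-6.63 to -2.64) in DKO. Vwf-zero ECs of WT were higher in the same way, at 364 CPM of Hspa1b against 12.1 in YAPKO. Fos was at -4.10 (-4.76 to -3.49) and Egr1 at -3.59 (-4.23 to -2.98) in YAPKO (63.3% of its YAPKO UMIs from 1 cell), and the list of immediate early genes, which also holds Hspa1a and Hspa1b, at -2.52 (-2.70 to -2.35), -2.15 (-2.46 to -1.85) and -1.56 (-1.75 to -1.36) in the 3 knock-out libraries, against -1.58, -1.09 and -1.10 in Vwf-zero ECs. In TAZKO Rspo3 was at -4.32 (-5.97 to -3.07) and the phospholipase gene Gdpd3 at -4.48 (-7.56 to -2.57). Gdpd3 was also lower in Vwf-zero ECs, at 32.2 CPM in TAZKO against 345 in WT, while Rspo3 was at 80.7 against 86.8. TAZKO had 1 cell with 3 or more Rspo3 UMIs and WT 2, and 1 cell gave 53.9% of the Rspo3 UMIs of WT. Fmo2, a flavin monooxygenase, had 39 UMIs in WT, 0 in YAPKO and 4 in DKO, with 76.9% of the WT UMIs from 1 cell. Its Vwf-zero levels were 5.93 CPM in WT, 1.86 in YAPKO and 1.44 in DKO. Also within the named ranks were Rps3a3, Rps15a-ps8, Rps3a1, Gm8420 and Mup11, which have near-identical copies, so their counts are uncertain. They differed in the same direction between the Vwf-zero ECs of these libraries. Every library gave UMIs of the Y-linked Ddx3y (14, 51, 17 and 20 in Vwf-positive cells) and 0 of Xist in Vwf-positive cells.

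Among the lists, the Hippo genes summed to log2 ratios to WT of 0.35 (0.09 to 0.61), 0.75 (0.43 to 1.07) and 0.39 (0.10 to 0.68), and the YAP and TAZ targets to -0.25 (-0.47 to -0.03), -0.13 (-0.43 to 0.18) and -0.49 (-0.76 to -0.22). The first list stood above WT in each knock-out library, and the second below it in YAPKO and DKO. In Vwf-zero ECs the Hippo genes were at -0.06, 0.35 and -0.04 and the targets at -0.13, -0.00 and -0.32. Ccn1, at -3.46 (-4.54 to -2.49), -3.09 (-5.44 to -1.43) and -2.88 (-4.29 to -1.69), was lower in all 3, and its WT UMIs came from 6 cells. Most of the gap between YAPKO and WT in the summed targets lay in Ccn1. Interferon-inducible genes were at 0.29 (0.12 to 0.47), -0.78 (-1.08 to -0.48) and -0.75 (-0.99 to -0.52), higher in YAPKO and lower in TAZKO and DKO, and Vwf-zero ECs moved the same way (0.26, -0.68 and -0.74). Arterial genes were at 0.08 (-0.19 to 0.36), 0.40 (0.04 to 0.75) and 0.48 (0.18 to 0.79), and scavenger genes at 0.05 (-0.04 to 0.13), -0.31 (-0.43 to -0.18) and -0.48 (-0.59 to -0.38). In Vwf-zero ECs the arterial genes stood at 0.70, 0.33 and 0.60, above WT in each as well, and the scavenger genes at -0.07, -0.06 and -0.15. Hepatocyte markers, at -0.86 (-1.03 to -0.68), 0.88 (0.69 to 1.08) and 0.30 (0.12 to 0.49), differed between the libraries too. Single cells weigh heavily in them (287 of 507 UMIs in TAZKO and 406 of 684 in DKO from 1 cell each). Stellate markers were at 0.26 (-0.04 to 0.58), -2.06 (-2.87 to -1.34) and -0.94 (-1.38 to -0.51), on 18 UMIs in TAZKO. The part of both lists in these ratios was not tested.

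**Figure D5:**
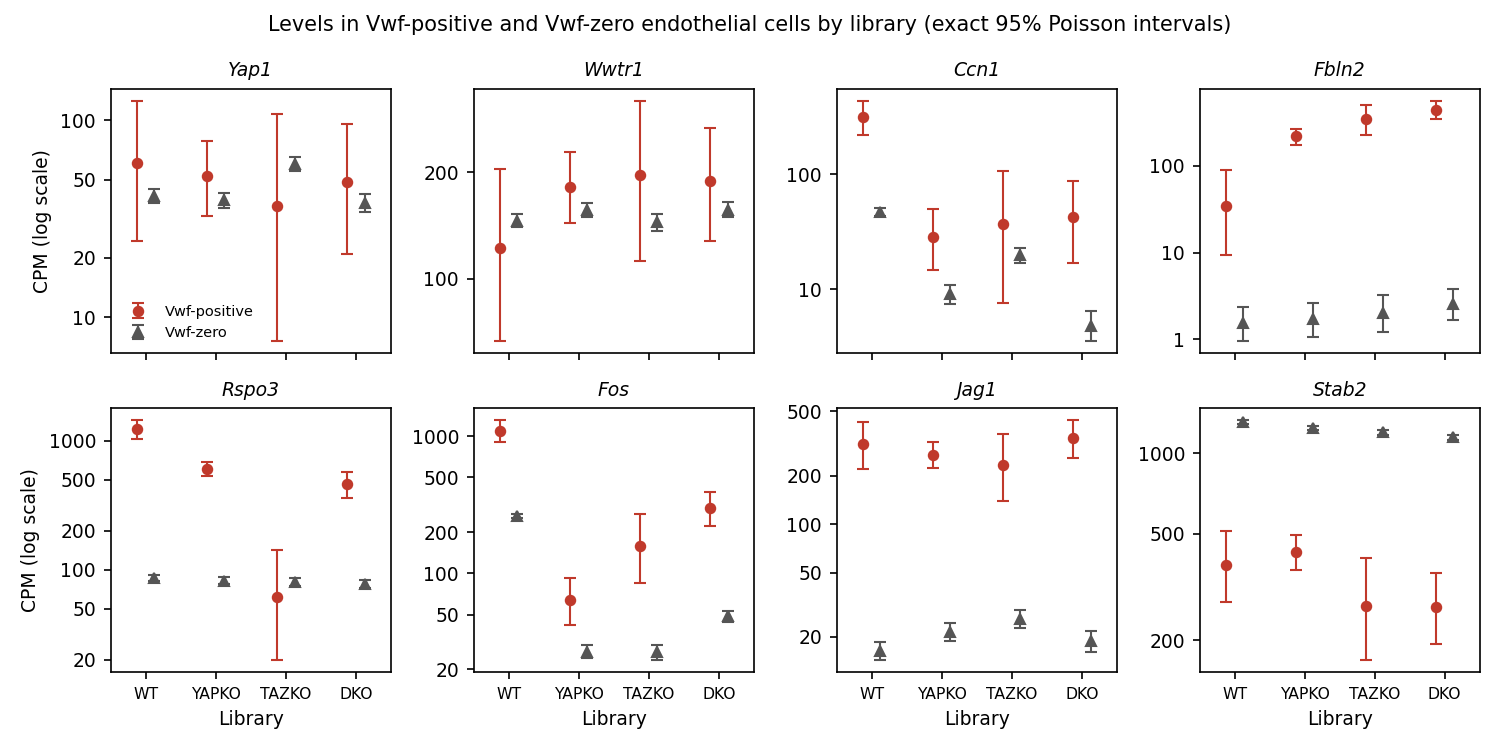
CPM of 8 genes in Vwf-positive (red circles) and Vwf-zero ECs (grey triangles) of each library, on log axes with exact 95% Poisson intervals. The intervals of Yap1 and Wwtr1 overlap between the classes in each library, Jag1 and Fbln2 are higher and Stab2 lower in Vwf-positive cells of every library, and Fos and Ccn1 are highest in WT in both classes.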

How the data were processed

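The deposited counts, whole UMI numbers for 55488 features, were made by the authors with Cell Ranger on build mm10 from 10x 3' v3.1 libraries read on a NovaSeq. The submitters' processing notes give Cell Ranger 6.0.1, and the file headers give 4.0.0. Counts were summed over the cells of each class and library (8 sums). Genes of the rule and mitochondrial genes stayed in the totals and out of the tests. The test was edgeR's quasi-likelihood fit with TMM scaling, filterByExpr and the library as block, with Benjamini-Hochberg adjusted p under 0.05. The bias-adjusted form of this fit was chosen after the counts of both forms had been seen, since the prior degrees of freedom of the legacy form came out infinite. Gene symbols in the text are the 15 genes of largest difference in each direction (called, the same direction in 4 of 4 libraries, at least 50 UMIs over the 8 sums), the called members with most UMIs of each list, arterial and scavenger genes by role, and the genes of the rule. A gene among the 15 lowest is not reported here. Between genotypes they are the 5 highest and 5 lowest ratios with 1 UMI added, among genes with at least 30 UMIs outside the rule and the marker lists of other cell types. Wnt2, Kit, Wnt9b, the other called vein and pericentral genes and the genes of the 3 cell groups were chosen after their values were seen. Cells with markers of another type had at least 5 UMIs of another type's markers or over 5% of UMIs from hepatocyte genes. The members and gene lists were chosen with earlier results of these data known. Thinning drew UMIs without replacement with a fixed seed. Ratios between libraries have exact intervals from the binomial distribution, and levels have exact Poisson intervals. Versions were R 4.3.3, edgeR 4.0.16, limma 3.58.1, DESeq2 1.42.0, Python 3.11.15, numpy 2.4.6, pandas 2.3.3, scipy 1.17.1 and matplotlib 3.10.9.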

Additional observations from a re-analysis of the deposited data

Results flagged for a closer look

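For 71 genes the log2 ratio of Vwf-positive to Vwf-zero ECs was taken in each library, and a gene is given here where 1 library lay far from the other 3. Chance alone gives about 1 in 20, and 6 of the 71 were found. Fbln2 was at 4.5 in WT, against 7.0 in YAPKO, 7.40 in TAZKO and 7.43 in DKO. Lmo7 was at 3.85 in DKO, against 5.52 in WT, 5.49 in YAPKO and 5.50 in TAZKO. Sparc was at -1.32 in DKO, against -0.64 in WT, -0.53 in YAPKO and -0.64 in TAZKO, and Tead2 at 1.96 in DKO, against 1.18 in WT, 1.20 in YAPKO and 1.23 in TAZKO. The flow gene Klf2 stood at 1.19 in WT, with 0.52 in YAPKO, 0.53 in TAZKO and 0.48 in DKO. Yap1 stood at -0.71 in TAZKO, where Vwf-positive cells had 3 UMIs, with 0.56 in WT, 0.41 in YAPKO and 0.35 in DKO.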

How the results depend on the processing

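The 414 genes called higher and 793 called lower numbered 232 to 353 and 320 to 592 with 1 library left out, and 377 and 334 with DESeq2. With no filter on low counts they were 412 and 754, with no library block 222 and 271, with Vwf-zero cells of matched depth 397 and 537, with mitochondrial UMIs up to 20% 414 and 796, and with cells carrying markers of another type left out 348 and 557. With Vwf at 2 or more UMIs they were 494 and 727, at 5 or more 297 and 518, and with the limits of 500 to 6000 read as UMIs 105 and 283. Chosen after seeing the data were WT and TAZKO left out together (7 and 0), TMM factors from genes with at least 1000 UMIs (578 and 550), and the legacy (437 and 838) and robust (434 and 834) forms of the fit. The 7 higher and 5 lower genes of the Gja5 comparison ranged over 0 to 24 and 0 to 23 with 1 library left out, and were 1 and 1 with DESeq2, 0 and 1 with no filter, and 0 and 1 without cells carrying markers of another type. It could not be fitted at 5 or more Vwf UMIs, since only YAPKO then had 5 cells on each side.

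Of 85 genes named and called, 5 kept the call under every alternative in which they could be tested, and genes with few UMIs, such as Bmx, were untested in some. WT and TAZKO left out together kept 4 of those higher and 0 of those lower, and the limits read as UMIs kept 25 and 19. DESeq2 did not call Nr2f2, Cldn5, Dusp1, Dcn and 8 of the 14 lowest genes described, and with Vwf-zero cells of matched depth Nr2f2, Cxcl12, Selp, Flt1, Dusp1, Alb, Dcn, Coq8a, Abcb4 and Lpl were not called. With no library block 35 of those higher and 19 of those lower kept the call. The sign turned for Cxcl12 (0.11) and Dcn (0.20) without cells carrying markers of another type, and for Flt1 (-0.19) and Tead2 (-0.02) with the limits read as UMIs. The share of Vwf-positive cells among ECs moved to 1.10% in WT and 0.990% in TAZKO at 2 or more Vwf UMIs, and at 5 or more to 1.57% in YAPKO, 0.297% in TAZKO and 0.748% in DKO. With the limits read as UMIs it was 0.207% in WT and 0.831% in YAPKO, below the 1.68% of DKO, and 0.35% in TAZKO. Only 3, 3, 6 and 13 Vwf-positive cells remained then in WT, YAPKO, TAZKO and DKO. Thinned to 2000 UMIs the share among ECs was 0.539% in YAPKO, 0.218% in TAZKO and 0.211% in DKO. The share with a Gja5 UMI moved to 66.7% in WT (9.43 to 99.2) and 0% in TAZKO (0 to 45.9) with the limits read as UMIs. These rest on 2 of 3 and 0 of 6 cells and are too imprecise to show a shift. It moved to 72.7% in DKO (8 of 11 cells) at 5 or more Vwf UMIs, and to 10.9% in YAPKO and 19.0% in DKO after thinning. The log2 ratio of Yap1 to WT turned to 0.08 in YAPKO (-1.06 to 1.36) and 0.13 in DKO (-1.28 to 1.58) at 2 or more Vwf UMIs. At 5 or more it turned to 0.10 in TAZKO (-3.36 to 2.90), on 2 UMIs against 4 in WT. With the limits read as UMIs it was -2.43 in TAZKO (-8.14 to 1.21) and -2.51 in DKO (-6.09 to 0.62). These rest on 1 and 2 UMIs against 3 in WT, and YAPKO then had 0 Yap1 UMIs. All of these intervals include 0.

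The main limits are the 96 cells, of which 46 came from YAPKO, the 1 mouse for each genotype, and the sinusoidal and hepatocyte RNA that the cells carry. Differences between genotypes cannot be told apart from differences between mice, isolations or libraries.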

Other observations

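Genes of other roles, chosen after their values were seen, also differed among the 36 cells with a Gja5 UMI, the 12 with Rspo3 and the 48 with neither. Adgrg6, an adhesion G protein-coupled receptor, was at 499.9, 0 and 343 CPM in this order, Nrg1 at 308, 0 and 231, the progenitor and vessel antigen Cd34 at 139.6, 0 and 139 and Atp13a3 at 1431, 26.9 and 559. All 4 were lowest in the Rspo3 cells. The cadherin Cdh13 was at 110.4, 672 and 84.5 CPM, Lgals1 at 48.7, 901 and 132 and Eng at 499.9, 2124 and 829.7, each highest there. Edn1 was at 425, 712 and 224 CPM, highest in the Rspo3 cells and present in all 3 groups.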
